A study of Mus musculus with 12 samples.

Results

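The retina of wild-type (WT) C57BL/6J mice, injected into the vitreous with 1 µl of 0.5X PBS and given no laser lesion, was described from its 3 RNA-seq libraries, out of 12 libraries in the series. The libraries were chosen by their labels alone (WT retina, PBS control, replicates 1 to 3). The other 9 libraries, 3 each of WT retina given cp-asiNRL (a short interfering RNA against Nrl), laser-lesioned retina given cp-asiNRL and laser-lesioned retina given PBS, were not used. All 4 groups share the C57BL/6J strain, the tissue and an injection into the vitreous, so the PBS retina is an injected retina and not an untouched one. Age, sex, the number of animals per library and the time between injection and collection are not given in the sources used here, so the spread among replicates may be technical as well as biological.

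The retina turns light into nerve signals in successive layers of nerve cells. Rods detect dim light and cones detect bright and coloured light, each with a visual pigment. In both, light activates a transducin G protein, which turns on a phosphodiesterase, and the fall in cyclic GMP closes a channel in the outer segment. Bipolar cells carry the signal to ganglion cells, whose axons form the optic nerve, while horizontal and amacrine cells modify it and Müller glia span and support the tissue. Rods are the most numerous cells of the mouse retina.

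The libraries held 51298466, 53397099 and 60077392 reads in genes in replicates 1, 2 and 3. Levels are given in the usual CPM unit, in which the reads of a gene are scaled to the reads in all genes of its library. A count of 3 reads, the limit that a count of 0 allows, corresponded to 0.0585, 0.0562 and 0.0499 CPM in replicates 1, 2 and 3, for counting error only. Of 40202 genes in the table, 6547 had no read in any of the 3 libraries, 18611 had a mean of at least 1 CPM, 2206 of at least 100 CPM and 80 of at least 1000 CPM. Reads were assigned over the whole span of a gene, introns included, so long genes collect more of them. Levels of different genes are therefore compared per kb of span and per kb of coding sequence, and an order between genes is stated where both lengths give it. Reads of genes that overlap each other cannot be told apart here. Of the 40202 genes, 17812 overlap another gene, and they held 62.0% ± 0.371 of the reads (SD, n = 3).

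A small number of genes took a large part of the reads. Malat1, a nuclear long non-coding RNA on chr19:5845718-5852700 (minus strand, GRCm39), held 10336, 10512 and 10236 CPM in replicates 1, 2 and 3. The 10 most abundant genes held 5.39% ± 0.234 of the reads, the 100 most abundant 18.1% ± 0.365 and the 1000 most abundant 49.0% ± 0.501 (SD, n = 3 each). The 5000 most abundant held 83.5% ± 0.395.

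Apart from Malat1, the 30 most abundant genes fell into 3 kinds. Rod and photoreceptor genes formed the first, with Gnat1, the alpha subunit of rod transducin, at 2864, 2499.9 and 2589.8 CPM in replicates 1, 2 and 3. Prph2, a tetraspanin of the disc rim, held 2551, 2196 and 2379 CPM. Rp1, a microtubule-associated protein of the outer segment axoneme, held 2085, 2066 and 2218 CPM, and Gnb1, a G protein beta subunit that many cells use, held 1967, 1885 and 1988 CPM. For these 4 genes the coefficient of variation (CV, the SD over the mean) ran from 2.78% for Gnb1 to 7.47% for Prph2.

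Very long genes, most of them known from neurons, formed the second kind. Cadm2, a synaptic cell adhesion molecule, held 5269.5, 5408 and 6038 CPM over a span of 965524 bases. Nrxn3, a presynaptic neurexin, held 4811, 4911 and 5079 CPM over 1612256 bases. Dmd, the dystrophin gene, held 3571, 3650.2 and 4054 CPM over 2390413 bases. Per kb of span these came to 5.77, 3.06 and 1.57 CPM for Cadm2, Nrxn3 and Dmd, against 510.0 for Gnat1. Per kb of coding sequence the same genes were at 4270, 1047 and 341 CPM, against 2525 for Gnat1. The order of Cadm2 and Gnat1 thus turned with the length and is not stated. Syt1, the calcium sensor of synaptic vesicles, Kcnip4, Marchf1, Pcdh15, Lsamp, Dlg2, Ntm, Rora, Asic2, Celf2, Rims2, Cacnb2, Dscaml1, Cadm1 and Pcdh9 were of the same kind, with means from 1876 CPM for Pcdh9 to 2715 CPM for Syt1. Genes that span over 100 kb, 2762 in number, held 44.2% ± 0.704 of the reads, and the 241 genes over 500 kb held 12.8% ± 0.308 (SD, n = 3 each).

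Short non-coding and mitochondrial genes formed the third kind. Rn7sk, the small nuclear RNA that holds the elongation factor P-TEFb inactive, had 4475, 4182 and 4605 CPM in replicates 1, 2 and 3. Rn7s1 had 3999, 3798 and 4770.4 CPM and Rn7s2 had 3975, 3769.8 and 4748 CPM. Both encode 7SL RNA, the RNA of the signal recognition particle, and both were highest in replicate 3. Their transcripts Rn7s1-201 and Rn7s2-201 in GENCODE M21 differ at 0 of 300 bases, so the reads of these 2 loci cannot be told apart and their near-equal values are not separate measurements.

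Per kb of span Rn7s1, Rn7s2 and Rn7sk were at 14011, 13927 and 13314 CPM, above every other gene of at least 1 CPM. TrnS1, a mitochondrial transfer RNA that overlaps COX1, was at 2214, and Rpph1, the RNA of ribonuclease P, at 2042 CPM per kb of span. COX1, a subunit of cytochrome oxidase, was at 1790.0, Malat1 at 1484, the mitochondrial large ribosomal RNA mt-Rnr2 at 1361 and COX3 at 1106. Rn7sk, 7SL RNA and Rpph1 are made by RNA polymerase III and lack the poly(A) tail that the library kit selects for, per the labels' protocols. RNAs of the scRNA biotype, the class of Rn7s1 and Rn7s2, took 0.836% ± 0.103 of the reads and snRNAs 0.449% ± 0.0214 (SD, n = 3 each). Protein-coding genes took 90.4% ± 0.128, long non-coding RNAs 6.85% ± 0.0531 and the mitochondrial chromosome 0.696% ± 0.0674.

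**Figure D1:**
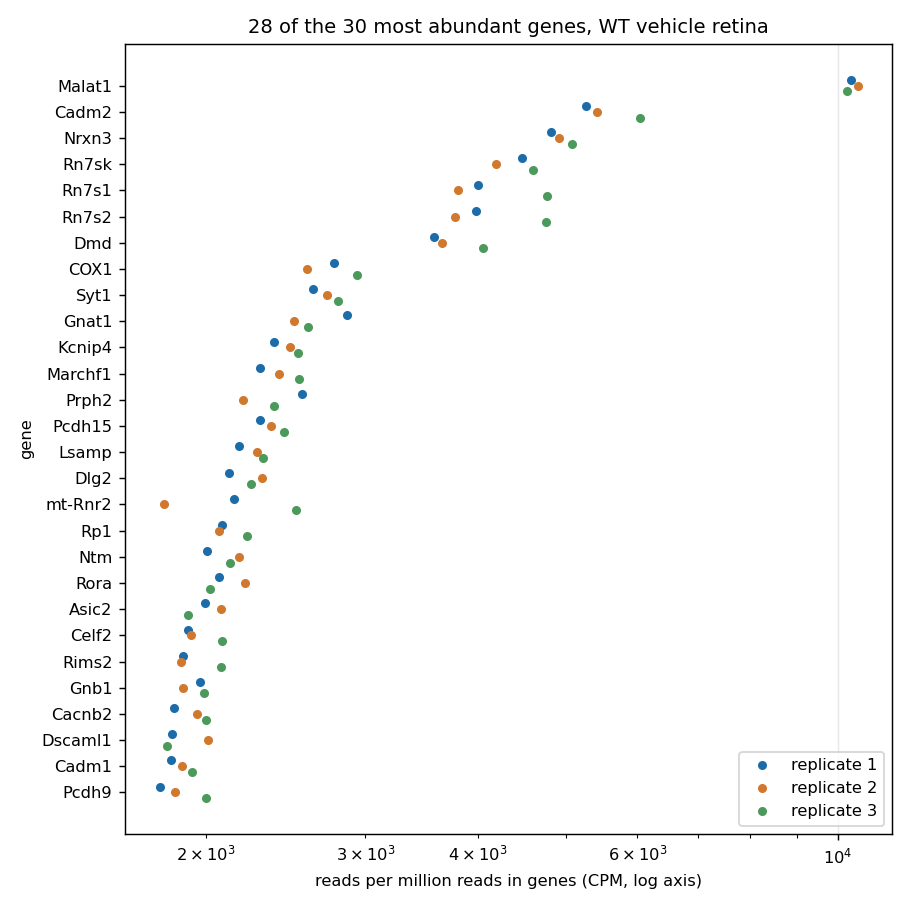
The 28 genes shown of the 30 with the most reads, from Malat1 at the top to Pcdh9, with CPM on a log axis and 1 point per library (blue, orange and green for replicates 1, 2 and 3). Malat1 stands at 10236 to 10512 CPM, Cadm2 follows at 5269.5 to 6038 CPM, and mt-Rnr2 is the most widely spread of those shown with 2148, 1795 and 2514 CPM.

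Among mitochondrially encoded genes the order of the libraries was shared by the most abundant members. The 15 listed genes summed to 6711, 6066 and 7349 CPM in replicates 1, 2 and 3, highest in replicate 3 and lowest in replicate 2. COX1 held 2773, 2589 and 2935 CPM, mt-Rnr2 2148, 1795 and 2514 CPM, and COX3 865, 798 and 939 CPM, each in that same order. Replicate 3 was highest for 8 of the 15 members, against 26.3% of all genes tested. Replicate 2 was highest for 5 of them, against 31.4% of all genes. After trimmed-mean scaling replicate 3 was highest for 9 of the 15, against 34.5% of all genes. ND6, encoded on the other strand from the remaining NADH dehydrogenase genes and overlapping ND5, held 12, 13.7 and 12.9 CPM. ND4L, which overlaps ND4, was the lowest with 2.67, 2.72 and 2.71 CPM.

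Rod genes stood highest among 17 lists of cell type genes, on each length. The 16 rod genes summed to 27874, 24552 and 26011 CPM in replicates 1, 2 and 3, which is 2.61% ± 0.167 of the reads (SD, n = 3). Their median was 30.2 CPM per kb of span and 742 CPM per kb of coding sequence, against 0.557 and 12.8 over the 24026 genes with at least 10 reads per library on average. In whole retina the number of cells of a type and the RNA per cell cannot be told apart, so a summed level is not a count of cells.

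Of the rod members described here, Gnat1 was the highest per kb on both lengths, at 510.0 CPM per kb of span and 2525 CPM per kb of coding sequence. Prph2 and Rom1, the partner tetraspanins of the disc rim, were at 164 and 389 CPM per kb of span but at 2288 and 730.1 CPM per kb of coding sequence, so their order turned with the length and is not stated. Per kb of coding sequence Gnat1 held 2727, 2381 and 2466 CPM in replicates 1, 2 and 3 and Prph2 2457, 2115 and 2292 CPM, which overlap.

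The rod phosphodiesterase is built from catalytic alpha and beta subunits and an inhibitory gamma subunit. Pde6a held 1286, 1238 and 1222 CPM, Pde6b 1408, 1364 and 1352 CPM and Pde6g 415, 366 and 369 CPM in replicates 1, 2 and 3. Per kb, Pde6g was the highest of the 3 on both lengths, at 65 CPM per kb of span and 1468 per kb of coding sequence, above Pde6b (31.7 and 535) and Pde6a (17.1 and 484). Pde6b overlaps Gm34254 and Pde6a overlaps Ppargc1b. The cyclic GMP-gated channel has an alpha subunit, Cnga1, at 507, 509 and 519 CPM and a beta subunit, Cngb1, at 432, 404 and 395 CPM. Per kb the alpha subunit was the higher of these on both lengths (13.1 against 6.07 CPM per kb of span, 249 against 103 CPM per kb of coding sequence).

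Sag, the rod arrestin that quenches the activated pigment, held 1859, 1751 and 1778 CPM. Slc24a1, the sodium, calcium and potassium exchanger of the rod outer segment, held 539, 514 and 507 CPM and overlaps Gm39361. Gngt1, the gamma subunit of rod transducin, held 195, 184 and 223 CPM and was highest in replicate 3. The transcription factor Nrl, which directs photoreceptor precursors to the rod fate, held 565, 501 and 541 CPM and overlaps no other gene. Nr2e3, the nuclear receptor that acts downstream of Nrl, held 381, 329 and 349 CPM and overlaps Gm7616. Reep6, a membrane-shaping protein of the rod endoplasmic reticulum, had the fewest reads of the list with 96.5, 88.7 and 82.7 CPM and overlaps Gm51809.

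Genes that rods and cones share were also well represented. All 20 had a mean of at least 100 CPM, and they summed to 12397, 12105 and 12149 CPM in replicates 1, 2 and 3. Rbp3, the retinoid-binding protein of the matrix between photoreceptors and pigment epithelium, held 1443, 1364 and 1278 CPM. Grk1, the kinase that phosphorylates activated visual pigment, held 1359, 1317 and 1307 CPM, and Pdc, phosducin, which binds transducin beta and gamma subunits, held 952, 1006 and 1073 CPM. Pdc was highest in replicate 3, whereas Rbp3 and Grk1 were highest in replicate 1. Crx, the homeodomain factor of photoreceptor genes, held 574, 528 and 555 CPM, and Otx2, the related factor that acts earlier in development, had the fewest reads of the list with 98.4, 99.7 and 102 CPM.

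The photoreceptor ribbon synapse was represented by 16 genes that summed to 7032, 7035 and 7207 CPM. Several of them serve other synapses too. Rims2, an active zone protein, held 1887, 1878 and 2078 CPM, Pclo, piccolo, 1003, 990.1 and 1085 CPM, and Snap25, the vesicle fusion protein, 537, 569 and 556 CPM. Cacna1f, the pore-forming subunit of the photoreceptor calcium channel, held 136, 133 and 117 CPM, and Cabp4, its calcium-binding modulator, 97.1, 86.1 and 90.2 CPM. Vamp2 had the fewest reads, with 40.9, 45.2 and 37.6 CPM.

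Cone genes lay far below rod genes. The 13 cone genes summed to 2155, 2168 and 2140.3 CPM in replicates 1, 2 and 3, or 0.215% ± 0.00137 of the reads (SD, n = 3), and their median was 3.39 CPM per kb of span and 83.7 CPM per kb of coding sequence. Opn1sw, the short-wave opsin, held 267, 244 and 249.9 CPM and Opn1mw, the medium-wave opsin, 80.6, 81.6 and 76.8 CPM. Per kb, Opn1sw was above Opn1mw on both lengths (66 against 3.42 CPM per kb of span, 244 against 68.3 CPM per kb of coding sequence). Opn1sw overlaps Calu on the other strand, which held 93.4, 89.2 and 94.5 CPM, or 3.23 CPM per kb of its span.

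Among the other cone genes, Arr3, cone arrestin, held 190.5, 186 and 174 CPM, and Gnat2, the alpha subunit of cone transducin, 77.7, 70.2 and 75.4 CPM. Pde6c, the catalytic subunit of the cone phosphodiesterase, held 111, 110.1 and 111 CPM, with the smallest CV of the list (0.513%). Thrb, the thyroid hormone receptor needed for medium-wave opsin in mouse cones, had the most reads of the list (935, 980.1 and 975 CPM). It overlaps LOC115488350, and its mean of 963 CPM was a large part of the mean list sum of 2154 CPM. Per kb of its long span Thrb was at 2.53 CPM against 66 for Opn1sw. Per kb of coding sequence it was at 676 against 244 CPM, so their order turned with the length and is not stated. Cnga3, the alpha subunit of the cone channel, held 10.4, 11.4 and 10.4 CPM, and Rxrg, a retinoid receptor of cones, had the fewest reads with 6.88, 7.40 and 6.92 CPM. Cnga3 and Rxrg were also the lowest of the 13 on both lengths.

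Rods and cones use related proteins for the same step, and the rod member was the higher in 9 of 9 such pairs on both lengths. The pairs were put together after the levels had been seen. The ratio of Gnat1 over Gnat2 was 100.2 ± 3.58 per kb of span, the largest of the 9 on that length, and 36 ± 1.29 per kb of coding sequence (mean and SD of 3 libraries, as for each ratio here). Cnga1 over Cnga3 was 55.1 ± 3.31 per kb of span and 46.7 ± 2.80 per kb of coding sequence, the largest of the 9 on the coding length.

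Other pairs had smaller ratios. The catalytic subunits Pde6b over Pde6c gave 14.6 ± 0.281 and 12.5 ± 0.239, the inhibitory subunits Pde6g over Pde6h gave 19.2 ± 1.04 and 9.59 ± 0.518, and the arrestins Sag over Arr3 gave 3.08 ± 0.124 and 9.27 ± 0.374. The lowest ratios lay close to equality and depended on the length used. Gnb1 over Gnb3 was 1.65 ± 0.113 per kb of span and 18.5 ± 1.27 per kb of coding sequence, and Cngb1 over Cngb3 was 10.7 ± 1.14 and 1.64 ± 0.176. Slc24a1 over Slc24a2 was 25.1 ± 0.765 and 1.83 ± 0.0560, and Gngt1 over Gngt2 was 4.63 ± 0.454 and 10.3 ± 1.01. Gnb1 and Slc24a2 are also made by other retinal cells, so these ratios are not ratios of rods to cones.

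**Figure D2:**
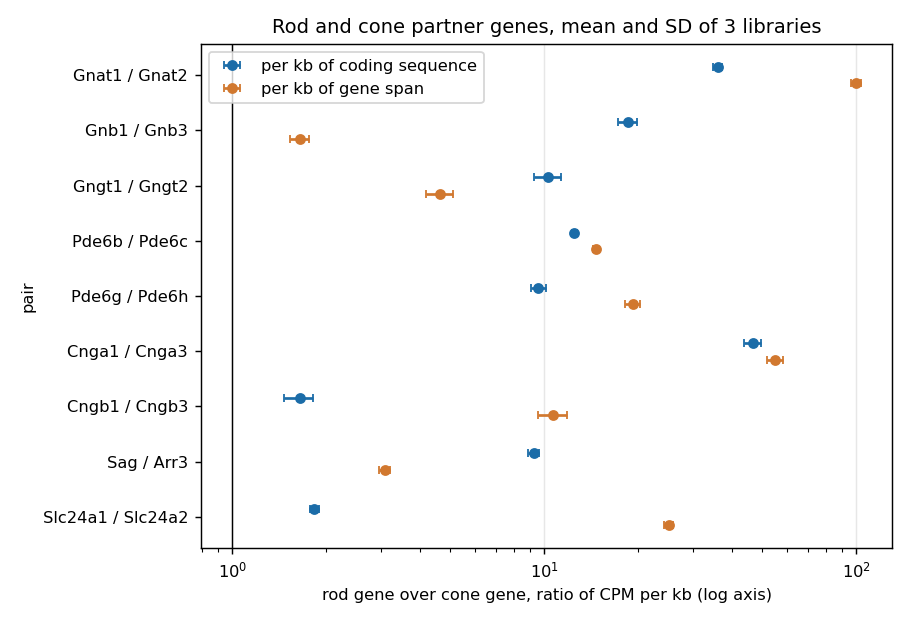
Ratio of the rod member over the cone member of 9 partner pairs, in CPM per kb of coding sequence (blue) and per kb of gene span (orange) on a log axis, with points at the mean and bars at the SD of 3 libraries. All 9 pairs lie above 1 on both lengths, from 1.65 for Gnb1 over Gnb3 to 100.2 for Gnat1 over Gnat2 per kb of span.

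The promoters of 4 photoreceptor genes are shown because each holds at least 1 copy of the short motifs of the factors that direct these genes. The promoter of Opn1mw held none of them over the same length and is not printed. The letters are the 250 bases before the annotated gene start, from the RefSeq promoter table on GRCm38.p6, 5′ to 3′ on the gene's own strand. They lie at chr17:46910228-46910477 (plus strand) for Prph2, chr1:87803430-87803679 (plus) for Sag, chr5:108388123-108388372 (plus) for Pde6b and chr6:29380514-29380763 (minus) for Opn1sw. The last bases of the Prph2 stretch lie inside its GENCODE transcript Prph2-201. Capitals mark TAATCC or TAATCT, the core bound by Crx and Otx2, and TGCTGA, the core of the Nrl response element, on either strand. TAATCC and TAATCT differ in their last base, and the search took a match on either strand.
Prph2: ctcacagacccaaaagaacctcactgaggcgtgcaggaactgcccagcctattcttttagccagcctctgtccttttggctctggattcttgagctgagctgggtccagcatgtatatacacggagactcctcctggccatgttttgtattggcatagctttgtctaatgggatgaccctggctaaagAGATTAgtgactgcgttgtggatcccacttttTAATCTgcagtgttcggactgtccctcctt
Sag: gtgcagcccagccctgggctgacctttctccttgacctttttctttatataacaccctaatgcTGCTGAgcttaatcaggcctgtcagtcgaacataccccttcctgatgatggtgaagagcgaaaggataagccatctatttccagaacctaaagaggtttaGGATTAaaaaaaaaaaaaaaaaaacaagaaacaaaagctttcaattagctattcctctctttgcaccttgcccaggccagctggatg
Pde6b: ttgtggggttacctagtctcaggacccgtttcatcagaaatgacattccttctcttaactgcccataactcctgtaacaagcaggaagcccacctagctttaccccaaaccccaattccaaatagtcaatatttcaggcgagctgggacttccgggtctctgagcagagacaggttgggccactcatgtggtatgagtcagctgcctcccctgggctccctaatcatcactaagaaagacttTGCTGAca
Opn1sw: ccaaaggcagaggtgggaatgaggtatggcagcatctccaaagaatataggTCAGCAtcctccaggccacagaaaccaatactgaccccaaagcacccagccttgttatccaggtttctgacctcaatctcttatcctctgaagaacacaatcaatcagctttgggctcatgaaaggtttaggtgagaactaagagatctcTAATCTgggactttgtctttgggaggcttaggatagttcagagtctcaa

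In these letters Prph2 held 2 copies of TAATCT and no TGCTGA. Sag held 1 TAATCC and 1 TGCTGA, Opn1sw 1 TAATCT and 1 TGCTGA, and Pde6b 1 TGCTGA with neither Crx core. Gnat1 is named only. Of the rod genes with an entry, 6 of 11 held TAATCC or TAATCT, as did 4 of 9 cone genes and 13 of 16 shared photoreceptor genes, against 14.6% of all 27025 genes with a promoter entry over the same length. TGCTGA stood in 2 of 11 rod, 1 of 9 cone and 6 of 16 shared genes, against 18.0% of all genes with an entry. The motifs and the genes shown were chosen after the levels had been seen, and a match of letters is a description and not a bound site.

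The 15 genes of ON and rod bipolar cells, which answer to light with depolarisation, summed to 3308, 3544 and 3346 CPM in replicates 1, 2 and 3. That was 0.340% ± 0.0126 of the reads (SD, n = 3), but the members that overlap no other gene held 0.0296%, against 0.0734% for such members of the cone list. Their median was 3.67 CPM per kb of span and 52.8 CPM per kb of coding sequence, which puts the list above the cone list on the span and below it on the coding sequence, so these lists are not ordered. Prkca, protein kinase C alpha, the usual rod bipolar marker, had the most reads (1557, 1707 and 1601 CPM). Gng13, a G protein gamma subunit, had the fewest, with a mean of 10.6 ± 0.502 CPM (SD, n = 3), and overlaps Chtf18.

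The ON pathway runs from the glutamate receptor Grm6 through the G protein alpha subunit Gnao1 to the channel Trpm1. Grm6 held 39.8, 45.9 and 37.2 CPM, Gnao1, which most neurons make, 269, 292 and 254 CPM, and Trpm1 500.2, 537 and 497 CPM. All 3 were highest in replicate 2. In the whole list of 15 genes replicate 2 was highest for 6, or 40%, against 31.4% of all genes tested, and replicate 1 was also highest for 6. Rgs7 and Rgs11, which speed the G protein's return to rest, held 469.8, 502 and 503 CPM and 24.3, 21.4 and 20.3 CPM. The membrane proteins Gpr179, Lrit3 and Nyx, needed for this cascade and known from night blindness, held 91.8, 87.9 and 78.5 CPM, 80.3, 84.9 and 74.6 CPM, and 32.2, 30.5 and 30.4 CPM. Per kb of span Trpm1 and Gpr179 were nearly equal, at 4.26 and 4.25 CPM, but per kb of coding sequence Trpm1 was at 105 CPM against 12.5 for Gpr179.

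Genes of bipolar identity and OFF bipolar cells summed to 733, 779 and 766 CPM over 9 genes. Grik1, a kainate receptor subunit of OFF bipolar dendrites, held 471, 521 and 509 CPM and overlaps several gene models. Vsx1, a homeobox factor of OFF types, held 15.2, 14.3 and 16.5 CPM. Otor had the fewest reads, with 3.02, 3.56 and 3.0 CPM.

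Amacrine, horizontal and ganglion cells are the other neurons of the inner retina. The 16 amacrine genes summed to 1063, 1072 and 1012 CPM, with a median of 0.564 CPM per kb of span and 9.43 per kb of coding sequence. Dab1, a reelin adaptor, took the most reads (495, 519 and 476 CPM), followed by Slc6a9, the glycine transporter of glycinergic amacrine cells (154, 138 and 135 CPM), and Pax6 (121, 120.3 and 115 CPM). Gad1 and Gad2, which make GABA, held 68.6, 71.0 and 71.7 CPM and 18.1, 19.8 and 20.2 CPM. Chat, of starburst cells, held 13.7, 14.0 and 12.2 CPM, and Th, of dopaminergic cells, was the lowest of the 16 with 0.916, 0.712 and 0.549 CPM.

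The 8 horizontal cell genes summed to 542, 564 and 526 CPM, most of it from Tnr, tenascin-R (289, 317 and 292 CPM), and Ndrg1 (139.5 ± 8.48 CPM, SD, n = 3), neither of which is limited to horizontal cells. Calb1, calbindin, held 27.6, 27.6 and 28.0 CPM. Onecut1, a factor of horizontal cell fate, held 2.81, 2.90 and 2.76 CPM, Gja10, the gap junction gene of these cells, 1.36, 1.35 and 1.30 CPM, and Lhx1 0.507, 0.843 and 0.832 CPM. Lhx1 was the lowest of the 8.

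The 15 ganglion cell genes summed to 429.8, 421 and 395 CPM in replicates 1, 2 and 3. Nefl, the neurofilament light chain, took the largest part with 213, 201 and 200.1 CPM. Rbpms, an RNA-binding protein that marks all ganglion cells, held 42.4, 46.5 and 39.4 CPM, and Slc17a6, their vesicular glutamate transporter, 32.4, 32.7 and 30.4 CPM. The POU factors of ganglion cell identity were low, with Pou4f1 at 5.46, 4.63 and 4.64 CPM, Pou4f2 at 2.71, 2.21 and 2.33 CPM and Pou4f3 at 1.38, 0.843 and 0.866 CPM. Opn4, melanopsin, the pigment of light-sensitive ganglion cells, was the lowest with 0.663, 0.730 and 0.832 CPM, above the level of 3 reads in each library.

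Müller glia genes summed to 1975, 1834 and 1912 CPM over 15 genes, with a median of 3.39 CPM per kb of span and 69.4 CPM per kb of coding sequence. Glul, glutamine synthetase, had the most reads (756, 703 and 740.3 CPM), and it was also the highest of the 15 on both lengths. Dkk3 followed with 323, 292 and 310.2 CPM, and Rlbp1, the retinaldehyde-binding protein of these cells, held 132, 124 and 126 CPM. Aqp4, the water channel, and Kcnj10, the potassium channel of Müller endfeet, held 71.3, 69.7 and 78.4 CPM and 13.5, 14.7 and 11.7 CPM. Sox9 had the fewest reads, with 2.96, 2.57 and 3.51 CPM.

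The genes of astrocytes and reactive glia were low. The 12 genes summed to 116, 110.5 and 113 CPM, and 5 of them had a mean under 1 CPM. Stat3, which many cells make, had the most reads (48.0, 47.1 and 45.1 CPM). Gfap, the filament protein of astrocytes and of Müller cells after injury, held 6.61, 5.90 and 6.36 CPM. The acute-phase gene Serpina3n held 1.07, 0.674 and 1.22 CPM, the endothelin gene Edn2 0.760, 0.936 and 1.07 CPM, and Lif, a cytokine of stressed retina, was the lowest with 0.195, 0.281 and 0.150 CPM. The median CV of the 12 genes was 11.5%, and 7.09% with the counting part taken out.

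Microglial genes summed to 54.5, 57.7 and 54.3 CPM over 12 genes. P2ry12, the purinergic receptor of resting microglia, held 21.1, 22.8 and 21.2 CPM, but it lies within the span of Med12l. Csf1r held 3.82, 4.21 and 3.23 CPM, C1qa 2.40, 2.23 and 1.53 CPM and Cx3cr1 1.58, 1.5 and 1.48 CPM. Aif1, which encodes the marker Iba1, was the lowest with 0.253, 0.150 and 0.183 CPM.

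Vessel genes, 12 of endothelium and pericytes, summed to 354, 343 and 335 CPM. Kdr, the VEGF receptor of endothelium, had the most reads (111, 104 and 103 CPM), and Slc2a1, the glucose transporter of the blood-retina barrier, held 84.7, 83.7 and 80.6 CPM. Both genes are made by other retinal cells as well. The more restricted endothelial genes Cldn5 and Cdh5 held 8.19, 7.29 and 7.26 CPM and 1.75, 2.0 and 1.51 CPM. Kcnj8, a pericyte potassium channel subunit, had the fewest reads, with 1.68, 1.69 and 1.71 CPM.

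Tissues that border the retina left few reads. The 14 pigment epithelium genes summed to 124, 123 and 125 CPM, of which Mitf, which overlaps no other gene, held 64.3, 65.9 and 61.3 CPM. Rpe65, the isomerase of the visual cycle, held 2.73, 2.72 and 3.33 CPM, Best1 0.936, 0.918 and 0.866 CPM and the pigment enzyme Tyr 0.955, 0.768 and 1.13 CPM. Ttr, the transthyretin gene, held 6.63, 6.39 and 9.05 CPM and was highest in replicate 3, as was Rgr, the retinal G protein-coupled receptor, with 10.9, 9.36 and 12.7 CPM. Ttr overlaps Gm16090 and Rgr overlaps Lrit1.

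The 21 lens genes summed to 9.96, 8.61 and 9.25 CPM. Crygb, Crygc, Cryge and Crygf had no read in any library, and Cryaa, Lim2 and Crygd had reads in replicate 1 only, at most 0.0585 CPM. Cryab, which other cells make and which overlaps Hspb2, held 3.68, 3.97 and 4.38 CPM. Of the 11 genes of ciliary body, iris and cornea, Col9a1 held 52.0, 53.8 and 54.7 CPM, whereas the corneal keratin Krt12 held 0.546, 0.449 and 0.399 CPM, Krt5 had reads in replicate 1 only and Krt14 had none. The 10 muscle genes summed to 7.58, 7.19 and 6.69 CPM, with the fast myosins Myh1, Myh2 and Myh4 each at 0 in at least 1 library.

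Genes of red blood cells summed to 102, 96.0 and 96.1 CPM and those of oligodendrocytes and myelin to 50.7, 47.5 and 47.4 CPM in replicates 1, 2 and 3. Hbb-bs, an adult beta globin, held 5.83, 4.46 and 2.86 CPM and Hba-a1, an alpha globin, 2.38, 1.95 and 1.18 CPM. All 4 globin genes were in the same order, highest in replicate 1 and lowest in replicate 3, and their near-identical copies can share reads. Alas2, the heme synthesis enzyme of red cells, was at 88.8, 86.4 and 89.6 CPM, but it overlaps Apex2, which held 226, 227 and 231 CPM, while Slc4a1, the anion exchanger of the red cell membrane, held 0.0390, 0.0562 and 0.0166 CPM. Of the oligodendrocyte genes Mbp, which cells other than oligodendrocytes also make, held 34.8, 33.2 and 32.5 CPM. Mag held 0.156, 0.0375 and 0.133 CPM, Olig1 had reads in replicate 1 only and Mobp had none.

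Ordered by their medians, the 17 lists kept the same order per kb of span and per kb of coding sequence in 126 of 136 pairs of lists. The rod list ranked 1 and the Müller list 3 on both lengths. The cone list ranked 4 on the span and 2 on the coding sequence, and the ON bipolar list 2 on the span and 4 on the coding sequence. Astrocyte, microglial, oligodendrocyte, ciliary, lens and muscle lists came last, in that order, on both. Of the 10 pairs whose order turned with the length, 5 involved the red blood cell list.

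**Figure D3:**
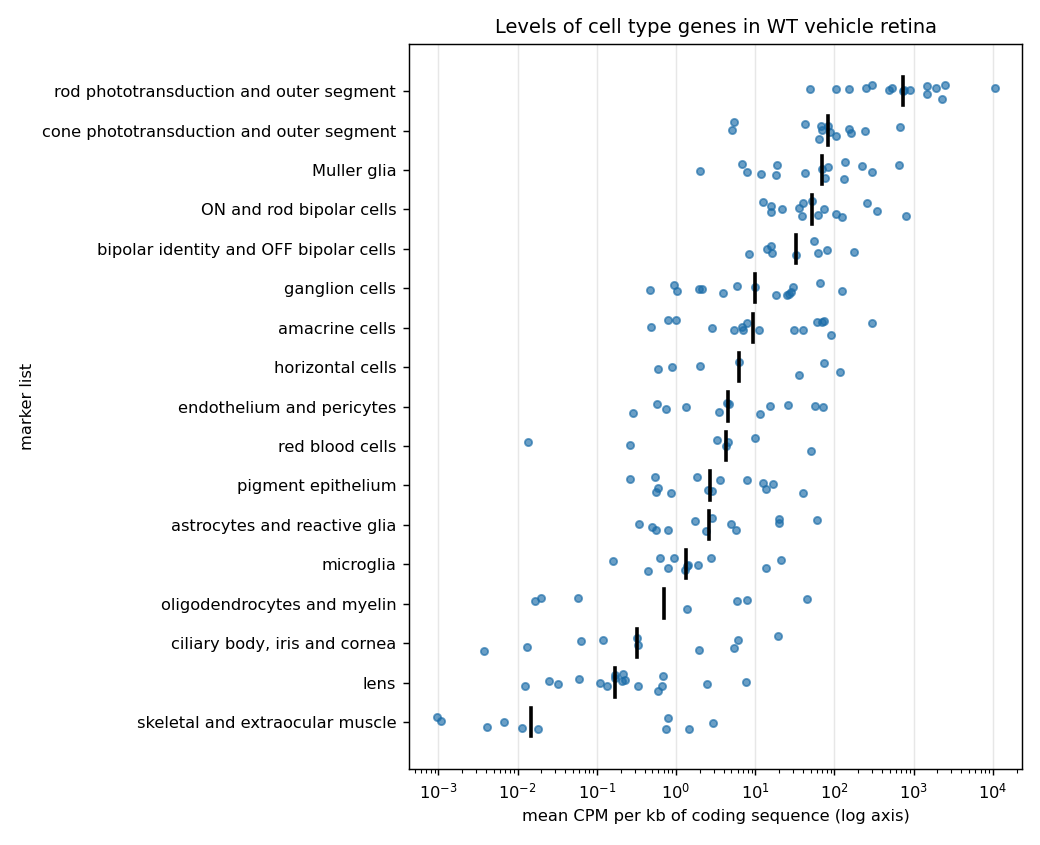
Mean level of each member of 17 cell type lists in CPM per kb of coding sequence on a log axis, 1 point per gene with a read and a coding length, and the median of the list as a black bar. The median falls from 742 in the rod list to 0.0147 in the muscle list, and single members of most lists lie far above or below their own median.

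How far the 3 libraries differed from each other was tested gene by gene. Among 24026 genes with at least 10 reads per library on average, a chi-square test of the reads against the library totals (Benjamini-Hochberg adjusted p under 0.05) called 7400 genes, or 30.8%, as differing beyond counting error. The test compares these libraries and not animals or conditions. The median chi-square was 4.28, against 1.39 from counting error alone. The CV was at least 20% in 3287 genes (13.7%) and under 5% in 7869 genes (32.8%), with a median of 7.26%.

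Depth set how much of the spread could be seen. Among the 7263 genes with 10 to 100 reads the median CV was 17.7% and counting error alone gives 17.9%. Among the 1097 genes with over 10000 reads the median CV was 3.58%, against 0.788% from counting error. The share of genes called went from 6.46% in the first of these classes through 23.7% and 55.1% to 84.9% in the last, so a called gene is in the main a deeply read gene. Any pair of libraries differed by a median of 5.33% to 6.43% per gene among the 13494 genes of at least 5 CPM, and 20 to 27 genes differed by more than 1.5-fold.

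Rod genes were all deeply read and all called, 16 of 16, where 84.9% of genes with over 10000 reads and 55.1% of those with 1000 to 10000 reads were. The size of their spread was a median CV of 6.61%. Replicate 1 was highest for 13 of the 16, against 42.3% of all genes tested, and 13 of 16 also after trimmed-mean scaling, where replicate 1 was highest for 33.8% of all genes. Gnat1, Prph2, Rom1, Pde6g and Nr2e3 were each highest in replicate 1 and lowest in replicate 2, with CVs of 7.15% to 7.98%. Gngt1, which had the largest CV of the list, was highest in replicate 3.

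In the cone list 9 of 13 genes were called, against 30.8% of all genes tested and 55.1% of those with 1000 to 10000 reads, the class of its median member. None had a CV of 20% or more. Replicate 1 was highest for 7 of 13, against 42.3% of all genes tested. After trimmed-mean scaling it was highest for 4 of 13, against 33.8% of all genes. Gnb3 had its largest CV, 8.15%, with 115, 98.8 and 102 CPM. In the shared photoreceptor list 18 of 20 were called, at a median of 21822 reads, where 84.9% of genes over 10000 reads were. In the Müller list 11 of 15 were called, at a median of 4164 reads, where 55.1% of genes were. Replicate 1 was highest for 9 of 15 Müller genes, against 42.3% of all genes tested. After trimmed-mean scaling it was highest for 6 of 15, against 33.8% of all genes. The ON bipolar list had 11 of 15 called at a median of 2307 reads, where again 55.1% of genes were. Grm6 was its most spread member at a CV of 10.9%. The ganglion list had 9 of 15 called at a median of 744 reads, where 23.7% of genes with 100 to 1000 reads were. Of 12 vessel genes 1 was called, in that same class with a median of 575.5 reads, and of 12 microglial genes 1, at a median of 67.5 reads, where 6.46% of genes were.

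The libraries also differed along gene span. Genes of 1 to 3 kb had a median log2 deviation from the 3-library mean of 0.07 in replicate 1 and -0.04 in replicate 2, while genes over 300 kb had -0.03 in replicate 1 and 0.03 in replicate 2. Replicate 1 was the highest library for 52.6% of the genes of 1 to 3 kb and for 11.3% of those over 300 kb. The rod genes have a median span of 16260.0 bases, and genes of 10 to 30 kb had replicate 1 highest in 48.5% and a median deviation of 0.04. The part of span in the spread of the rod genes was not tested.

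**Figure D4:**
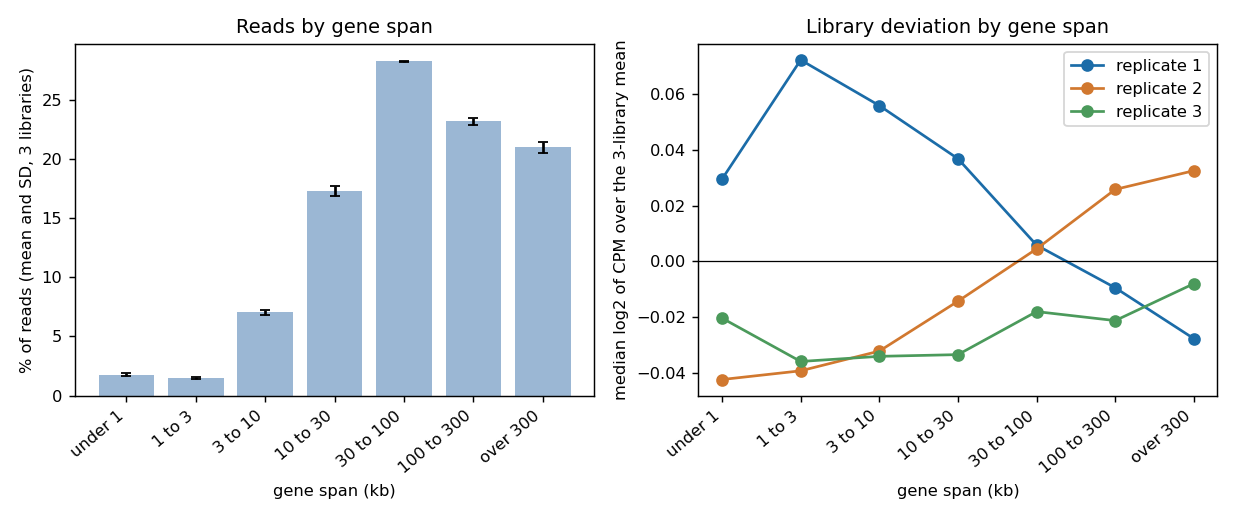
Left, share of reads by gene span (bars at the mean, error bars at the SD of 3 libraries). Right, the median log2 of CPM over the 3-library mean for each library in the same span classes, which falls in replicate 1 from 0.07 at 1 to 3 kb to -0.03 over 300 kb and climbs in replicate 2 from -0.04 to 0.03.

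Few well-read genes differed much. Of 13494 genes of at least 5 CPM, 49 (0.363%) had a CV of at least 20%, and 29 of these are named genes and not gene models. Eps8l1, which encodes a relative of the actin regulator Eps8, was the most variable of the named genes, with 1.64, 16.5 and 15.1 CPM in replicates 1, 2 and 3 (CV 74.1%). Rdh13, a retinol dehydrogenase that overlaps it on chr7, held 20.2, 36.6 and 33.9 CPM. Replicate 1 was thus low for both, and their reads cannot be told apart where they overlap.

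Sall2, a zinc finger factor on chr14:52548634-52566127 (minus strand, GRCm39), held 53.5, 26.3 and 24.0 CPM, with replicate 1 apart from the others. Its neighbours moved in the same direction. Mettl3, the RNA methyltransferase subunit, held 64.3, 42.8 and 41.7 CPM, Tox4 58.8, 37.5 and 38.0 CPM and Rab2b 21.3, 13.0 and 13.8 CPM. The 4 genes lie side by side, and of these Rab2b, Tox4 and Mettl3 overlap in a chain while Sall2 overlaps none of them. Within 100 kb of each other, a distance chosen after the values were seen, 17 of the 49 variable genes formed 7 blocks. Most of these blocks were pairs of genes that overlap each other, whose reads cannot be told apart.

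Pcdh17, a protocadherin, held 46.9, 50.7 and 25.5 CPM, with replicate 3 low. It shared a block with 9630013A20Rik, which lies within its span, at 5.95, 6.55 and 3.65 CPM. Other variable genes had no variable neighbour within that distance. Slc15a2, a peptide transporter, held 32.9, 34.8 and 70.8 CPM, with replicate 3 apart. Cdk5rap1 held 30.7, 57.6 and 38.5 CPM, Nrros 23.0, 38.1 and 22.2 CPM and Bmf, a pro-apoptotic BH3 protein, 18.7, 15.1 and 9.09 CPM. Duxbl1 held 5.22, 9.06 and 3.78 CPM. Slc15a2, Cdk5rap1, Nrros, Bmf and Duxbl1 passed the chi-square test (adjusted p from 5.76e-237 for Slc15a2 to 5.73e-29 for Duxbl1). They were picked for a high CV over the same 3 libraries, so the test is not separate support.

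Among genes of at least 50 CPM, Filip1l held 299.7, 424 and 299.8 CPM and Cmss1, whose span encloses it on the other strand, 308, 425 and 309 CPM, so both were high in replicate 2 alone and their reads cannot be told apart. Cdk8, a kinase of the Mediator complex that overlaps no other gene, held 389, 536 and 413 CPM. Ccl21b, a chemokine gene from a family of near-identical copies, held 75.5, 45.3 and 68.8 CPM and is uncertain for that reason. Mest, an imprinted gene, held 98.0, 126 and 99.1 CPM and overlaps Copg2.

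At the other end, Cep350, a centrosomal protein, held 267 CPM in each library (CV 0.0273%), and Cpe, carboxypeptidase E, 542, 543 and 543 CPM. Gjd2, connexin 36, the gap junction protein of AII amacrine cells and photoreceptors, held 57.3, 57.3 and 57.4 CPM. Syne2, a nuclear envelope protein that photoreceptors need to place their nuclei, held 536, 536 and 537 CPM, and Cdc42 held 81.0, 80.9 and 81.1 CPM. Each of these CVs lies below the CV that counting error alone gives at that depth, so it does not show the gene to be steadier than others.

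**Figure D5:**
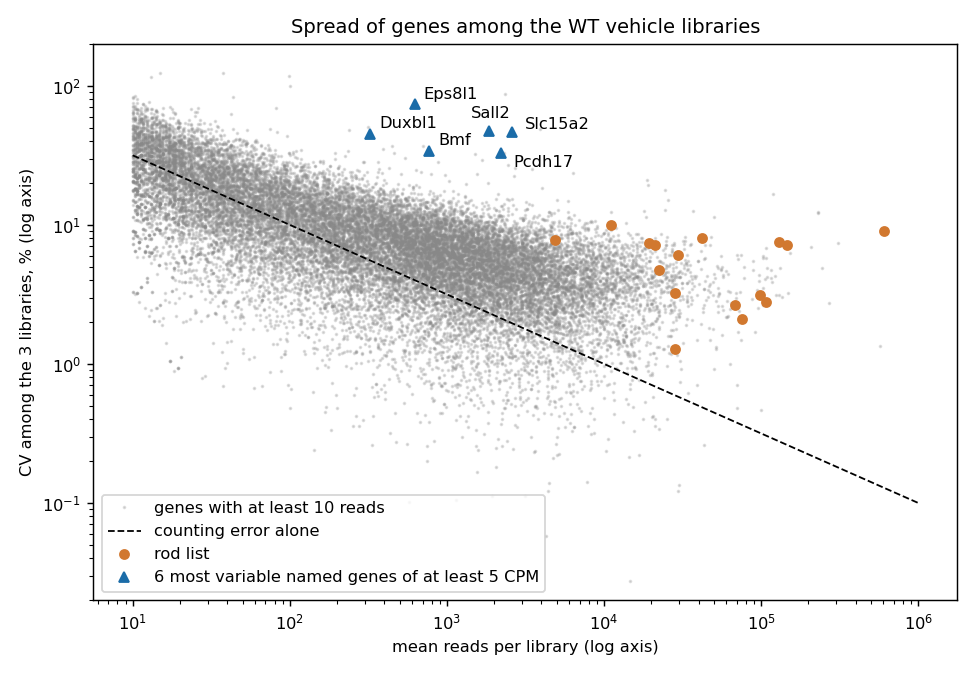
CV among the 3 libraries against the mean reads per library, both on log axes, for 24026 genes (grey), the 16 rod genes (orange circles) and the 6 most variable named genes of at least 5 CPM (blue triangles), with the CV that counting error alone gives as a dashed line. The rod genes lie above the line, from a CV of 1.27% for Cnga1 to Gngt1 at the top, and Eps8l1 stands highest of the named genes at 74.1%.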

How the data were processed

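Retinal RNA was sequenced from a strand-marking kit for polyadenylated RNA, per the labels' protocols. Per the submitters' processing notes, the aligner was HISAT2 2.1.0, the counter featureCounts 1.6.0 and the build mm10, but the table's chromosome accessions belong to GRCm39, whose coordinates are printed. The authors deposited a signal per gene, headed FPKM per the file headers, with a gene length that equals the genomic span for 40200 of 40202 genes. Multiplying the deposited signal by that length gave whole numbers, within 1e-06, at each of the 120606 values of the 3 libraries, so it is reads per base of span without scaling to depth. Another 9 columns of the same table were not used.

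Reads were recovered as signal times length and scaled to the library total (CPM) in Python 3.11.15 (numpy 2.4.6, pandas 2.3.3, scipy 1.17.1, matplotlib 3.10.9). Coding length is the longest coding sequence of the symbol in GENCODE M21, found for 312 of 329 list entries in the table, where the plan had named protein lengths. The chi-square test (2 degrees of freedom) was run on genes with at least 10 reads per library on average and tested on simulated data. No group was compared. The count tools edgeR and DESeq2 were not run, because the deposited columns are not counts, and scaling factors were computed with trims of 30% and 5%. The 25 lists hold 331 entries, of which Bmal1 and Mx1 are not in the table. The members and lists were chosen with earlier results of these data known. Named genes are the 30 with the most reads, the 10 highest per kb of span, list members, the 15 most variable and 10 steadiest of at least 5 CPM and the 10 most variable of at least 50 CPM, gene models apart. The partner pairs, motifs, printed promoters, the overlapping partners of named genes and the few named gene models were chosen after values were seen. Promoter sequences are from RefSeq (GRCm38.p6). Some list members and abundant genes are not reported here by name, but they stay in the sums and counts.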

Additional observations from a re-analysis of the deposited data

How the results depend on the processing

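Trimmed-mean scaling (6961 genes called as differing beyond counting error), median-of-ratios scaling (6935) and leaving out the mitochondrial genes (7366) left each count within 1.5 times its main value. They left the share of the 100 most abundant genes and of each list within its SD, except the cone list, at 0.217% without the mitochondrial genes. With only the genes that overlap no other gene, the 100 most abundant held 9.09% of the reads, 3287 genes were called, 1635 had a CV of at least 20% and 3554 under 5%, and the rod list held 2.18%, since most reads lie in overlapping genes and fewer genes are tested; 23 of 24 other list sums moved by more than their SD. The count of genes with a CV of at least 20% was 7495 with only a read in each library required, 218 with at least 100 reads, 1454 at a CV of at least 30% and 1735 with the counting part taken out. Leaving out each library in turn gave 3520 to 5173 called genes, with 4650 without replicate 1 and 3520 without replicate 3. It gave 2906 to 3044 genes with a CV of at least 20%, 9922 to 10892 under 5%, 17.9% to 18.2% of reads in the 100 most abundant genes, 2.53% to 2.69% in the rod list and 135 to 136 of 136 list pairs in the same order. The order of lists was the same in 126 pairs per kb of coding sequence, 124 with no length, 132 with the genes that overlap no other and 124 per kb of annotated exons, a length added after seeing the data. The dispersion alternative was not run. No paired analysis was possible because only 1 group was described. Levels are limited by gene overlap and by the length used, as the values above show. Depth limits the spread that can be seen: genes with 10 to 100 reads had a median CV of 17.7%, where counting error alone gives 17.9%.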

Other observations

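Energy and clock genes were among the better represented groups outside the cell type lists. The 17 glycolysis genes all had a mean of at least 10 CPM and summed to 4039, 3984 and 3914 CPM in replicates 1, 2 and 3. Pkm, pyruvate kinase, had the most reads (821, 773 and 775 CPM), and Hk2, the hexokinase that photoreceptors use, held 305, 335 and 319 CPM. The lactate dehydrogenase subunits differed, with Ldha at 233, 230.4 and 227 CPM against Ldhb at 17.0, 15.9 and 17.0 CPM, and per kb of span they were at 17.2 and 0.939 CPM. Gapdh held 55.7, 57.3 and 48.3 CPM, and it has many near-identical pseudogene copies that can take its reads. Of the 14 clock genes in the table, Clock held 240.5, 235 and 260.2 CPM and Nr1d2 235, 236 and 243 CPM, while Arntl, the partner of Clock, held 184, 194 and 177 CPM. Per1 and Per2 were at 16.7, 16.7 and 15.8 CPM and 24.9, 29.2 and 21.7 CPM, and Dbp, which overlaps Sphk2, at 51.2, 46.4 and 43.9 CPM.

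Genes of recent activity and of interferon were low. The 14 immediate early genes summed to 131, 131 and 126 CPM, with Btg2 highest (53.0, 47.6 and 50.2 CPM), Fos at 10.1, 10.5 and 10.2 CPM and Egr3 lowest (0.0780, 0.0187 and 0.166 CPM). Nr4a3 held 1.29, 2.34 and 0.982 CPM, Egr1 2.69, 4.08 and 2.91 CPM and Nr4a1 16.4, 20.1 and 15.6 CPM. These 3 genes were all highest in replicate 2 and passed the chi-square test (adjusted p of 1.55e-07, 0.000670 and 1.78e-07). They were picked with their values in the same 3 libraries known, so the test is not separate support. The test called 5 of the 13 members tested (38.5%), against 30.8% of all genes tested. Replicate 2 was the highest library for 8 of these 13, against 31.4% of all genes tested. The 14 interferon genes in the table summed to 87.8, 85.2 and 79.2 CPM. Isg15 held 0.390, 0.431 and 0.233 CPM and Oas1a 0.0780, 0.187 and 0.0832 CPM.

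The sex chromosomes gave values the labels do not speak of. The Y-linked genes Uty (203, 202 and 216 CPM), Eif2s3y (124, 137 and 139.8 CPM), Ddx3y (69.2, 69.1 and 79.5 CPM) and Kdm5d (50.8, 50.9 and 51.2 CPM) were read in all 3 libraries. Xist, the RNA of the inactive X, held 0.0975, 0.262 and 0.183 CPM and overlaps Tsix. The gene model Gm33272, placed on chromosome Y, held 87.6, 32.2 and 13.3 CPM (CV 87.0%). Whether its reads come from chromosome Y alone was not tested. It is therefore not set beside the Y-linked genes above, which were no more than 8.24% apart by CV. The gene model Gm36876 on chromosome 11, which overlaps no other gene, held 50.3, 112 and 52.5 CPM. Both models were singled out after their values were seen, and why they vary was not tested.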
